A study of Mus musculus with 106 samples.

Results

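The genes described here are the nuclear genes for the subunits of the mitochondrial respiratory chain and of ATP synthase. They were taken by symbol: Nduf followed by a, b, c, s or v and a number, Sdha to Sdhd, symbols starting with Uqcr, symbols starting with Cox and a number from 4 to 8, and symbols starting with Atp5, without pseudogenes and without genes of mitochondrial DNA. This gave 85 genes of the 25873 symbols in the series, 84 in each of the 4 count tables and 83 in every table. By complex there were 35 genes of complex I, 4 of complex II, 8 of complex III, 20 of complex IV and 18 of ATP synthase. Ndufa4 and Ndufa4l2 were counted with complex IV, to which the NDUFA4 protein belongs, and Cox7a2l was kept there by its name. Atp5s and Atp5sl match the rule by name but are not structural subunits of the enzyme.

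The respiratory chain passes electrons from NADH and succinate through complexes I to IV to oxygen and pumps protons across the inner mitochondrial membrane. ATP synthase uses the returning protons to make ATP. In brown fat the uncoupling protein UCP1 lets protons return without ATP synthesis, so that oxidation yields heat, and the tissue is known for its dense mitochondria and for little ATP synthase relative to the chain. Several complex IV subunits exist as isoforms, of which COX6A2, COX7A1 and COX8B are best known from heart and skeletal muscle, while COX6A1, COX7A2 and COX8A are widespread.

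The series is bulk RNA sequencing of tissues from male C57BL/6J mice kept at room temperature (22 °C), moved to 10 °C for 2 weeks after 5 days each at 18 and 14 °C, or moved to 34 °C for 4 weeks. All mice were wild type and 8 weeks old at the start, and the labels give an age of 11 or 12 weeks at collection. The 10 °C groups were interscapular brown fat (iBAT), inguinal subcutaneous fat (ingSAT), perigonadal visceral fat (pgVAT), quadriceps, liver, ileum, spleen, bone marrow, brain, hypothalamus and spinal cord, and the 34 °C groups were iBAT, quadriceps, liver, ileum and brain, each with its own 22 °C group except quadriceps. The 6 quadriceps libraries at 22 °C were used against both the 10 °C and the 34 °C quadriceps, so these comparisons share their controls. Of these, libraries named QM share their prefix with the 10 °C quadriceps and those named QC with the 34 °C quadriceps. The paper names different suppliers for the cold and the warm mice with their controls, so the shared group may mix both. Most groups held 3 libraries, each pooled from 2 mice. Bone marrow had 6 and spinal cord 5 libraries per group from 1 mouse each, and in the warm iBAT experiment the 22 °C libraries came from single mice and the 34 °C libraries from single mice or, in 1 case, a pool. The total count per library lay between 4262403 in a 22 °C pgVAT library and 62880248 in a 22 °C brain library.

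Because each library is a whole tissue, fewer cells of a type and less RNA per cell cannot be told apart. Some libraries stood apart. Replicate 2 of the brain at 22 °C stood apart from its group, with a mean correlation of 0.719 to the other libraries of that group, and replicate 2 of pgVAT at 10 °C with 0.813. Quadriceps library QM1 at 22 °C had the highest subunit counts of its group.
The tables also counted some genes differently. In the same tissue at 22 °C, Atp5g2 was higher in the 34 °C table than in the 10 °C table by a median of 5.04 on the log2 scale over 4 tissues, Cox7c by 4.96, Atp5l by 3.41 and Atp5g1 by 2.80, whereas the difference for Ndufs5 was -4.02. Several of these genes have near-identical copies elsewhere in the genome, whose part was not tested. The paper also names different library kits and sequencing sites for these tissues in the cold and the warm experiment. The part of that difference was not tested either. Levels were therefore compared only within a table, apart from isoform ratios given beside those of quadriceps, and the values of these genes are uncertain.

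The promoters of 5 genes are shown because these genes frame the results: Cox7a1 and Cox8b had the largest rises, Cox8a and Cox6a1 are widespread isoforms, and Sdhd rose in ingSAT at 10 °C and fell in iBAT at 34 °C. Each run is 300 bases of RefSeq sequence on GRCm38.p6, from 250 bases before to 50 bases after the annotated start, 5′ to 3′ on the strand of the gene. Capitals mark a match, on either strand, to NRF1 (GCGCA, then any base, then GCGC), GABP (CCGGAAG), ERR (TNAAGGTCA), YY1 (AAGATGGCG) or a TATA box (TATAAA). The positions are chr7:30183921-30184220 on the plus strand for Cox7a1, chr7:140900397-140900696 on the minus strand for Cox8b, chr19:7217567-7217866 on the minus strand for Cox8a, chr5:115348909-115349208 on the minus strand for Cox6a1 and chr9:50603800-50604099 on the minus strand for Sdhd.
Cox7a1: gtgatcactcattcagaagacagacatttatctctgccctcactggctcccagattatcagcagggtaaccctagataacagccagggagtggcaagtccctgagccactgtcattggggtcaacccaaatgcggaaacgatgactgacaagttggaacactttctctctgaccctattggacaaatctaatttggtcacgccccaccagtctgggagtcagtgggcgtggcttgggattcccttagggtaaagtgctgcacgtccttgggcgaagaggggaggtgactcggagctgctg
Cox8b: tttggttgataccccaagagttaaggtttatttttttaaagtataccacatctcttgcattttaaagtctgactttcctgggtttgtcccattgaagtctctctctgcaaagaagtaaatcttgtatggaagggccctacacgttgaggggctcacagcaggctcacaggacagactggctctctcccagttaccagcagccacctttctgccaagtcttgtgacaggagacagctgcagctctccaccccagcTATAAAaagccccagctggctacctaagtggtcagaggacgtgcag
Cox8a: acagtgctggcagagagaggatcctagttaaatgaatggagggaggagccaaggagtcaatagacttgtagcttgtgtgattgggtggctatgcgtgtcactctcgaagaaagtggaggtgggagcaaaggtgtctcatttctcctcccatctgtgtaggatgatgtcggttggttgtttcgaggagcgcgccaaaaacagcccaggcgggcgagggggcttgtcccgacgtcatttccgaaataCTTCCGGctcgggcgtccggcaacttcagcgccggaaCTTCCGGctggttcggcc
Cox6a1: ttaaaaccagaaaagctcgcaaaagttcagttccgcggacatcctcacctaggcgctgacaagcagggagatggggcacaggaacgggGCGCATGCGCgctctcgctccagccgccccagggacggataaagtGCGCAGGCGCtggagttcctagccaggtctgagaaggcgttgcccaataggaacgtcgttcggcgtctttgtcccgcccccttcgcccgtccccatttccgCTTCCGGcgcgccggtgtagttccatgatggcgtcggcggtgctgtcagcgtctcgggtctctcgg
Sdhd: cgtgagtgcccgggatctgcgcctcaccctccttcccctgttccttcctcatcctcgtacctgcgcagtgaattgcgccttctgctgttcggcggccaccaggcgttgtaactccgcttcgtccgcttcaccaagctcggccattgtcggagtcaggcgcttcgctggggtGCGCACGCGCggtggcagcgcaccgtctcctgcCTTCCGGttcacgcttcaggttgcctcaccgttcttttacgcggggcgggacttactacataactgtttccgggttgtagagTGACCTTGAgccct

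Cox7a1 held none of these motifs in its window and Cox8b held only the TATA box. Cox6a1 held 2 NRF1 matches and a GABP match, Cox8a held 2 GABP matches, and Sdhd held NRF1, GABP and ERR matches. The windows shown do not stand for their isoform classes. Cox7a2, the widespread partner of Cox7a1, held none of these motifs, and Cox6a1 was the only complex IV gene with an NRF1 match.
A window was found for 69 of the 85 genes, 3 of them by an older symbol. NRF1 letters stood in 17 of the 69 (24.6%), against 5.19% of 27025 genes with a window and 10.6% of 10917 such genes that could be tested in ingSAT. The GABP motif was in 16 (23.2%, against 9.93% and 18.6%), YY1 in 8 (11.6%, against 1.64% and 3.26%), ERR in 3 (4.35%, against 1.43% and 0.916%) and TATAAA in 7 (10.1%, against 15.7% and 9.43%). The median GC content of the windows was 57.3% for the subunit genes, 52.7% for all genes and 60.3% for the genes tested in ingSAT. NRF1 matches were found in 7 of 31 windows of complex I genes and 6 of 16 of ATP synthase, but in 1 of 14 of complex IV. A match is a stretch of letters and not a measured binding site.

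At 22 °C, iBAT devoted far more of its counts to the subunits than any other tissue. They took 5.24% ± 0.08 (SD, n = 3) of all counts in iBAT, 1.28% ± 0.11 in ingSAT, 1.19% ± 0.15 in pgVAT, 1.36% ± 0.14 in brain, 1.14% ± 0.11 in liver, 1.07% ± 0.05 in ileum, 0.862% ± 0.025 in hypothalamus and 0.668% ± 0.068 in spleen. Of these, iBAT was clear of all other tissues and spleen lay below the rest. The other tissues formed a graded order, in which neighbours such as brain and ingSAT, or pgVAT and liver, differed by less than their spread. In the table with the 34 °C groups the order was iBAT (6.83% ± 0.48), quadriceps (2.60% ± 0.18, n = 6), then ileum and liver (both 1.42%) and brain (1.08% ± 0.06).
Atp5b, the catalytic beta subunit of ATP synthase, had the highest counts per kilobase of transcript in each 22 °C tissue of the 10 °C table. In iBAT it stood at 3423 ± 570.1 CPM per kb (CPM are counts scaled to a common library size by TMM, n = 3), followed by Cox8b at 3076 ± 275 CPM per kb and by Cox4i1 at 2139 ± 145. In ingSAT the levels were 928 ± 99.6 for Atp5b, 199 ± 10.5 for Cox8b and 730 ± 56.0 for Cox4i1.

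**Figure D1:**
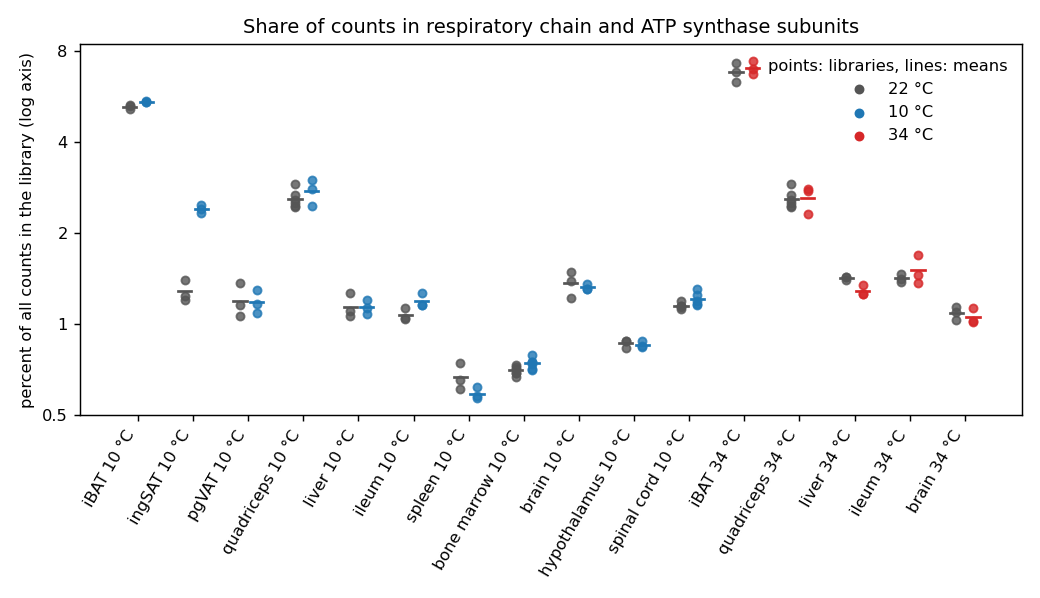
Percent of all counts in a library that fell on the 84 subunit genes of its table, on a log axis, for each comparison; each point is a library, each line a group mean, and grey, blue and red stand for 22, 10 and 34 °C. The ingSAT libraries at 10 °C (2.41% on average) lie clear above those at 22 °C (1.28%), whereas iBAT is high at every temperature.

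Cold raised the subunits most clearly in ingSAT, the subcutaneous depot in which brown-like adipocytes appear in the cold. In edgeR's quasi-likelihood test, 62 of 82 tested subunit genes were higher at 10 °C at an adjusted p under 0.05 and 0 were lower, whereas 7.51% of all 13982 genes tested were called, 4.61% higher and 2.90% lower. The median log2 fold change was 0.89 for the subunits and -0.01 for all genes. Their summed level was 24090 ± 826 CPM at 10 °C and 12802 ± 289 CPM at 22 °C, a ratio of 1.88 (n = 3 each). In 76 genes all 10 °C libraries lay above all 22 °C libraries, which held for 16.4% of all genes.

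**Figure D2:**
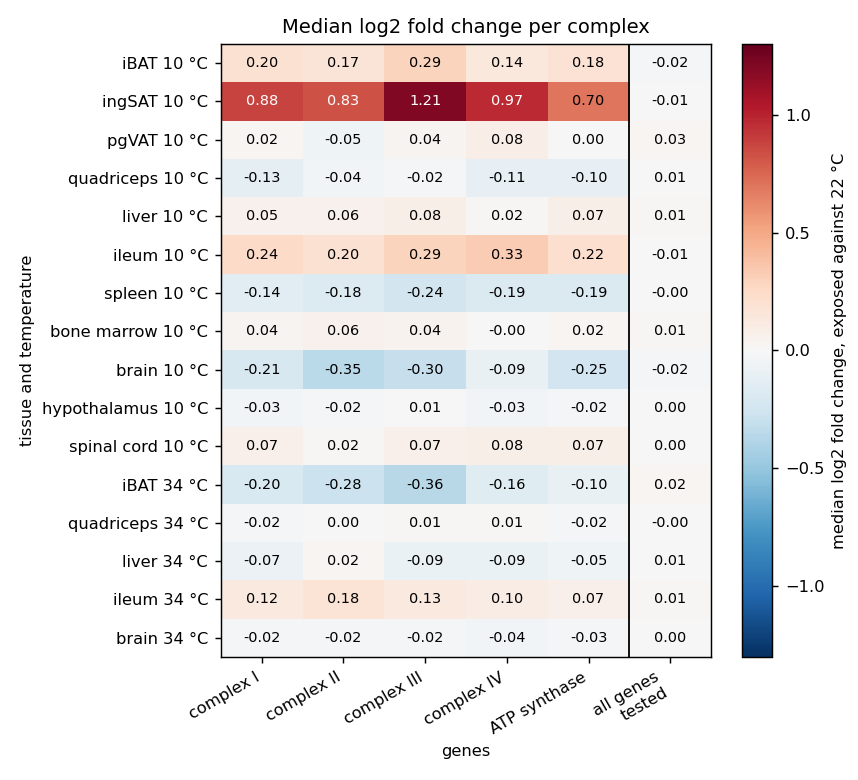
Median log2 fold change of the tested genes of each complex, exposed against 22 °C, for the 16 comparisons, with the median of all tested genes in the last column; red is higher and blue lower in the exposed group. ingSAT at 10 °C has the largest medians, from 0.70 for ATP synthase to 1.21 for complex III, and iBAT at 34 °C is negative for all 5 complexes with TMM, although with library size alone complexes I and IV and ATP synthase are above 0.

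Complex III, which passes electrons from ubiquinol to cytochrome c, was called higher throughout in ingSAT: all 8 genes passed, with a median log2 fold change of 1.21. Uqcrq was at 232.1, 232.5 and 234.2 CPM at 10 °C and at 96.7, 89.5 and 92.7 CPM at 22 °C (log2 fold change 1.33, SE 0.10, adjusted p = 0.00246). The groups were far apart and each was tight. Uqcrb rose most in the complex, from 42.2, 46.0 and 71.2 CPM to 141, 152 and 147 CPM (log2 fold change 1.46, SE 0.21, adjusted p = 0.0123). The core proteins and the Rieske protein (Uqcrc1, Uqcrc2 and Uqcrfs1) had a median of 1.20, and the 5 small subunits a median of 1.26.

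In complex I, the NADH dehydrogenase, 31 of 35 genes were called higher, with a median log2 fold change of 0.88. Ndufv2, an iron-sulphur subunit of the NADH-oxidising part, rose most. It was at 357, 368 and 336 CPM at 10 °C and at 131, 128 and 153 CPM at 22 °C (log2 fold change 1.36, SE 0.12, adjusted p = 0.00417). Of the 7 core subunits 5 were called (median 0.81), and of the 28 accessory subunits 26 (median 0.94). Ndufa10, an accessory subunit, rose from 199 ± 23 to 354 ± 10 CPM (log2 fold change 0.83, SE 0.13, adjusted p = 0.0157).
In complex II, succinate dehydrogenase, Sdhb, Sdhc and Sdhd passed and Sdha did not (median 0.83). Sdhd, a membrane anchor, was at 384, 333 and 361 CPM at 10 °C and at 143, 139 and 142 CPM at 22 °C (log2 fold change 1.34, SE 0.11, adjusted p = 0.00330). Sdha, the flavoprotein, was at 877 ± 99 and 592 ± 49 CPM (log2 fold change 0.57, SE 0.15, adjusted p = 0.0691).

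ATP synthase had the lowest median of the complexes (0.70) and the lowest share of calls, 8 of 17 tested genes. The abundant catalytic-head genes did not pass: Atp5b was at 3179, 2642 and 2833 CPM at 10 °C and at 1818, 1947 and 1572 CPM at 22 °C (log2 fold change 0.70, SE 0.18, adjusted p = 0.0622). These groups did not overlap. Atp5mpl, a small membrane subunit, rose most, from 71.4 ± 16.1 to 174 ± 11 CPM (log2 fold change 1.28, SE 0.17, adjusted p = 0.0111). Called were 2 of 5 genes of the F1 head, 3 of 4 of the peripheral stalk, 3 of 4 small membrane subunits and 0 of 3 genes for the c ring, which carries the protons. Atp5g3, the c-ring gene with the most counts in this table, had a log2 fold change of 0.35 (SE 0.12, adjusted p = 0.118). The c-ring genes Atp5g1 and Atp5g2 are among those whose counts differ between tables.

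**Figure D3:**
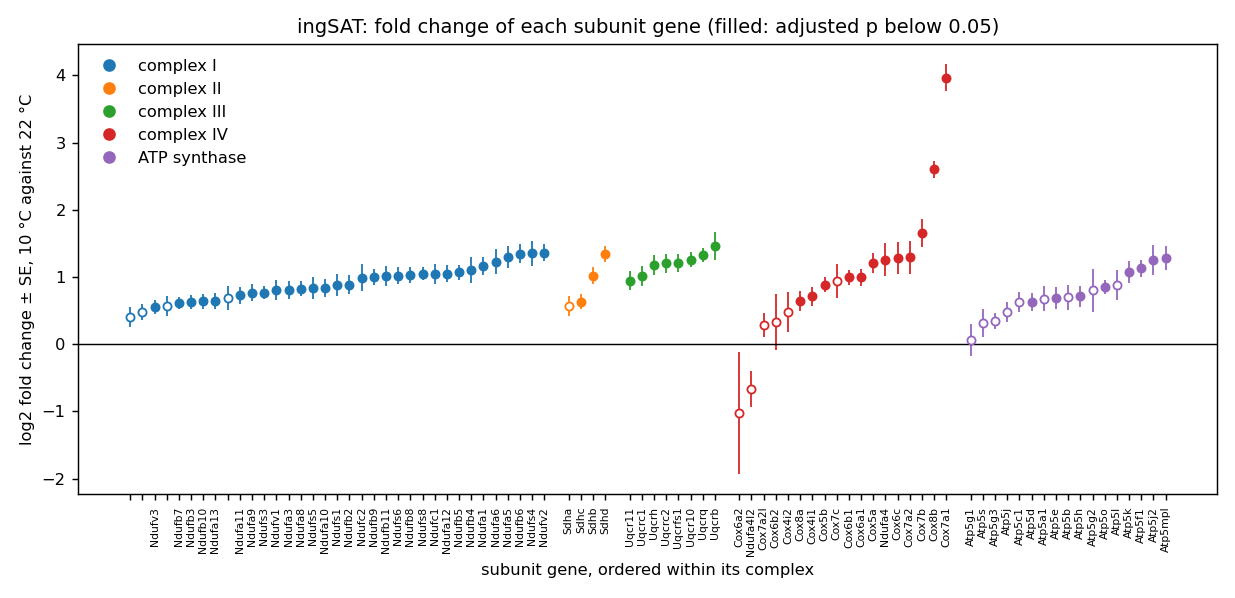
Log2 fold change (10 °C against 22 °C) with its SE for each of the 82 tested subunit genes in ingSAT, ordered within its complex (3 libraries per group); filled points passed an adjusted p of 0.05, and open points of complex I carry no name. Cox7a1 (3.96) and Cox8b (2.60) stand above all other genes, and Cox6a2 (-1.02) and Ndufa4l2 (-0.67) are the genes below 0.

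In complex IV, cytochrome c oxidase, 12 of 18 tested genes were called higher (median 0.97), and the isoform genes spread widely. Cox7a1 was at 129.1, 187.3 and 153.0 CPM at 10 °C and at 9.56, 11.8 and 8.71 CPM at 22 °C, a fold of 15.6 (log2 fold change 3.96, SE 0.20, adjusted p = 0.000931). Cox8b was at 407, 474 and 424 CPM against 68.2, 75.6 and 70.6 CPM, a fold of 6.08 (log2 fold change 2.60, SE 0.13, adjusted p = 0.000931). Both groups of both genes were far apart. Their widespread partners rose less, Cox7a2 by a log2 fold change of 1.29 (SE 0.25, adjusted p = 0.0289) and Cox8a by 0.65 (SE 0.15, adjusted p = 0.0450).
The remaining muscle-type isoform did not pass. Cox6a2 was at 2.90, 0.14 and 6.22 CPM at 10 °C and at 6.12, 8.66 and 4.02 CPM at 22 °C, and the groups overlapped (log2 fold change -1.02, SE 0.91, adjusted p = 0.488). Its partner Cox6a1 rose from 243 ± 12.8 to 486 ± 34.3 CPM (log2 fold change 0.998, SE 0.12, adjusted p = 0.00839). Cox4i1, which is the main subunit 4 isoform, rose by 0.71 (SE 0.14, adjusted p = 0.0300) and Cox6b1 by 0.997 (SE 0.11, adjusted p = 0.00732). Cox4i2 and Cox6b2 stayed under 2 CPM in all libraries and did not pass (adjusted p = 0.342 and 0.624). Ndufa4 rose by 1.26 (SE 0.25, adjusted p = 0.0312), whereas Ndufa4l2, which is known as a hypoxia-induced paralog, was at 3.32, 3.10 and 4.44 CPM at 10 °C and at 6.69, 5.96 and 4.62 CPM at 22 °C (log2 fold change -0.67, SE 0.26, adjusted p = 0.155).

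Set as ratios within a library, per kilobase and with 0.5 added to each count, the log2 ratio of Cox7a1 to Cox7a2 in ingSAT moved from -3.26 ± 0.67 at 22 °C to -0.66 ± 0.19 at 10 °C, and that of Cox8b to Cox8a from -1.14 ± 0.21 to 0.81 ± 0.24 (n = 3 each). Neither pair of groups overlapped. In iBAT both ratios were above 0 already at 22 °C: Cox7a1 to Cox7a2 was 0.76 ± 0.15 at 22 °C and 1.06 ± 0.19 at 10 °C, and Cox8b to Cox8a was 1.43 ± 0.25 and 1.35 ± 0.09, with overlapping groups. Quadriceps at 22 °C had a Cox7a1 to Cox7a2 ratio of 1.41 ± 0.07 and a Cox8b to Cox8a ratio of 4.33 ± 0.22 (n = 6). In that muscle Cox6a2 also exceeded Cox6a1, with a log2 ratio of 4.93 ± 0.38, whereas it was -5.11 ± 0.25 in iBAT and -5.59 ± 0.61 in ingSAT at 22 °C.

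**Figure D4:**
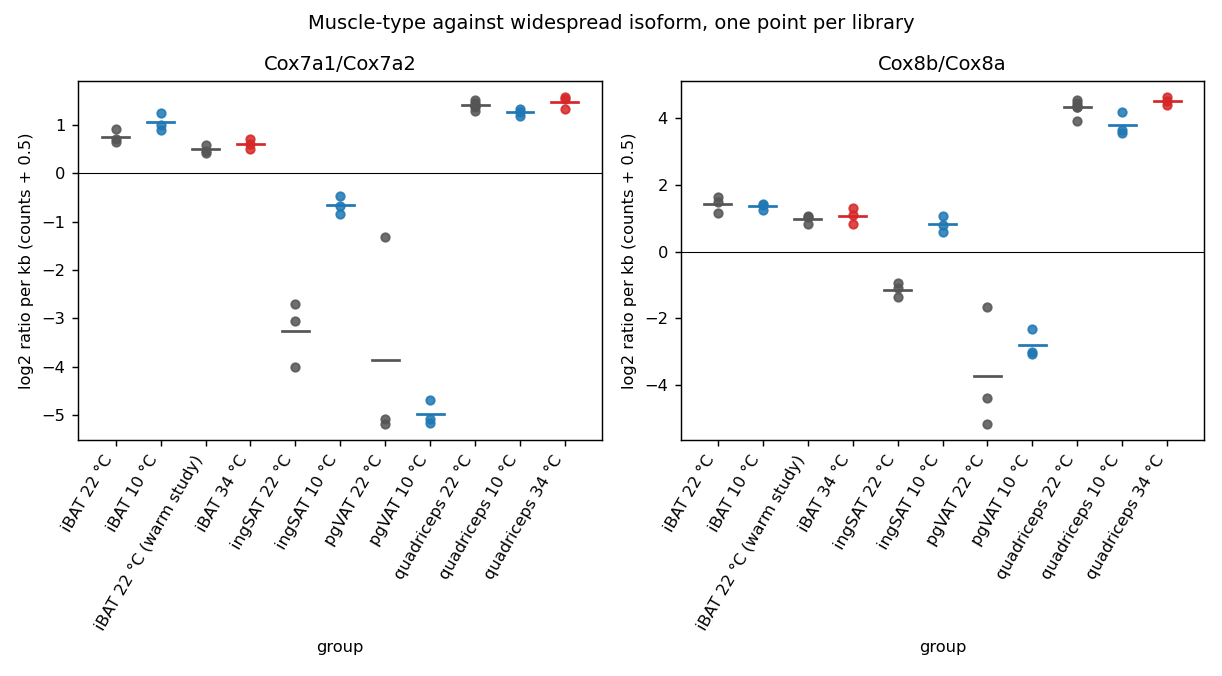
Log2 ratio per kilobase of Cox7a1 to Cox7a2 (left) and of Cox8b to Cox8a (right) in fat depots and quadriceps; each point is a library, each line a group mean, and grey, blue and red stand for 22, 10 and 34 °C. In ingSAT the Cox8b to Cox8a ratio passes from below 0 (mean -1.14) to above 0 (0.81), while the iBAT groups overlap and pgVAT at 22 °C is scattered. Quadriceps was counted in another table than ingSAT and pgVAT.

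The number of calls in ingSAT depended on single libraries, although the direction did not. Without replicate 2 or 3 of the 10 °C group it was 29 or 7, without replicate 1 or 2 of the 22 °C group 27 or 32, and without replicate 3 of the 22 °C group, which lay between the groups in many short genes, 71. The median stayed between 0.87 and 1.02, and 0 genes were called lower in any of these fits.
Brown adipocyte markers moved with the subunits in ingSAT: 6 of 8 were called higher and none was at 0, and their summed level was 2519 to 2937 CPM at 10 °C and 269 to 471 CPM at 22 °C. Ucp1 itself was at 1121 to 1593 CPM against 2.51 to 15.6 CPM (log2 fold change 7.35, SE 0.69, adjusted p = 0.00460). Skeletal muscle markers were at 31.6 to 2042 CPM against 1342 to 3295 CPM, with 0 of 11 called. General adipocyte markers were at 32780 to 40473 CPM and 36461 to 42106 CPM. The part of these cell markers in the subunit rise was not tested.

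Other mitochondrial genes of ingSAT rose as well. Of 10 tested subunits and carriers outside the name rule 7 were called higher (median log2 fold change 1.10), led by Cycs, cytochrome c, at 2.03 (SE 0.19, adjusted p = 0.00460). Of 13 citric acid cycle enzymes 10 were called (median 0.93), led by Sucla2 at 1.75 (SE 0.13, adjusted p = 0.00227), while citrate synthase Cs did not pass at 0.69 (SE 0.19, adjusted p = 0.0699). Assembly factors, which build the complexes but do not remain in them, gave 15 of 44 (median 0.54), outer membrane and import genes 6 of 13 (median 0.51), and regulators of mitochondrial genes 8 of 16 (median 0.40). 0 genes of these lists were called lower. Among the regulators, the coactivator Ppargc1a rose from 12.97 ± 2.38 to 25.5 ± 2.37 CPM (log2 fold change 0.97, SE 0.18, adjusted p = 0.0253) and the nuclear receptor Esrrg by 2.10 (SE 0.41, adjusted p = 0.0304). The 13 subunits encoded in mitochondrial DNA were not analysed here.

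In iBAT few subunits were called in the cold, and most estimates were small and positive. Of 82 tested genes 2 were called higher and 2 lower, against 6.22% and 5.07% of all 12791 genes, so the share called higher was below that of all genes. The median log2 fold change was 0.19 against -0.02 for all genes, and 71 of 82 estimates were positive. At an unadjusted p under 0.05 in the same test, 15 were higher and 2 lower, against 13.8% and 14.1% of all genes. All 10 °C libraries lay above all 22 °C libraries for 28 genes and below them for 2, against 16.4% and 16.8% of all genes. The summed level was 57569 ± 2573 CPM at 10 °C and 49693 ± 1483 CPM at 22 °C, a ratio of 1.16. Scaling by library size alone moved the median of all genes to -0.18 and that of the subunits to 0.03, so the positive estimate holds relative to other genes. With that scaling 0 subunit genes were called higher and 2 lower, so the higher calls given below rest on the TMM scaling.
Cox7a1 was at 846, 796 and 789 CPM at 10 °C and at 572, 507 and 521 CPM at 22 °C, with no overlap (log2 fold change 0.60, SE 0.13, adjusted p = 0.0183). Ndufa11, an accessory subunit of complex I, rose by 0.42 (SE 0.10, adjusted p = 0.0316). Cox6a2 was lower in the cold, at 27.6, 14.8 and 10.3 CPM against 48.0, 40.8 and 34.8 CPM (log2 fold change -1.22, SE 0.31, adjusted p = 0.0352). Skeletal muscle markers were lower in the same libraries, at 2852 to 5724 CPM against 7085 to 10481 CPM with 2 of 11 called lower and none at 0, and their part in the Cox6a2 result was not tested. Epididymis and testis markers were at 4.85 to 41.8 CPM against 0.417 to 0.671 CPM there, with 3 of 4 tested called higher.
Atp5s was also lower, at 10.6 ± 1.0 against 16.8 ± 2.0 CPM (log2 fold change -0.66, SE 0.15, adjusted p = 0.0231). Without 10 °C replicate 1, 2 or 3 the calls numbered 2, 2 or 0 and without 22 °C replicate 1 or 2 they numbered 2 or 1, against 4 in all libraries. DESeq2 gave 11 higher and 2 lower and the edgeR exact test 7 and 2, without shares of all genes worked out for these tests.

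Assembly factors in iBAT gave 8 of 43 called higher at 10 °C (median 0.22), led by Cox19, a copper-handling factor of complex IV, which rose from 57.4 ± 1.5 to 110 ± 2 CPM (log2 fold change 0.94, SE 0.10, adjusted p = 0.000902). Ndufab1, the acyl carrier protein that also sits in complex I, rose by 0.64 (SE 0.11, adjusted p = 0.00885) and was the only call among 10 tested subunits and carriers. Outer membrane and import genes gave 2 of 13 higher, led by the prohibitin Phb at 0.59 (SE 0.14, adjusted p = 0.0293). The 13 citric acid cycle enzymes had a median of 0.20, with Cs at -0.02 (SE 0.17, adjusted p = 0.960). Among the 17 regulators 2 were lower, led by Ppara, a fatty acid-sensing receptor, at -1.25 (SE 0.32, adjusted p = 0.0360). Ppargc1a did not pass at -0.91 (SE 0.27, adjusted p = 0.0646), nor did Ucp1 at 0.86 (SE 0.29, adjusted p = 0.0850).

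The cold response of the subunits differed between the fat depots. In a model of both depots, the log2 fold change was larger in ingSAT than in iBAT for 36 of 82 genes and smaller for 0, against 2.30% and 1.25% of all 13631 genes, with a median difference of 0.75. These 36 were 15 genes of complex I, 2 of complex II, 7 of complex III, 8 of complex IV and 4 of ATP synthase. The difference was 3.38 for Cox7a1 (SE 0.22, adjusted p = 2.51e-05) and 2.48 for Cox8b (SE 0.17, adjusted p = 3.53e-05). The count was 15 without 10 °C replicate 3 of ingSAT and 58 without its 22 °C replicate 3, and between 16 and 19 without 10 °C replicate 2, 22 °C replicate 1 or 2 of ingSAT, 10 °C replicate 3 or 22 °C replicate 2 of iBAT.
Against pgVAT, 0 differences passed in edgeR's quasi-likelihood test, against 0% of all genes called, although 49 of 82 had an unadjusted p under 0.05 with ingSAT larger and 0 with ingSAT smaller (3.55% and 6.83% of all genes), and the median difference was 0.84. Without replicate 2 of pgVAT at 10 °C, 17 differences were called larger in ingSAT and 1 smaller. The share of all genes called in that fit was not worked out.
Within pgVAT itself 0 of 81 genes were called at 10 °C, 1 had an unadjusted p under 0.05, and DESeq2 and the exact test also gave 0. Of all genes 0% were called, and 8.12% had an unadjusted p under 0.05, 4.55% higher and 3.57% lower. The libraries of the groups did not overlap for 0 subunit genes, against 5.01% of all genes upwards and 6.78% downwards. The median was 0.03, as for all genes, but -0.13 without 10 °C replicate 2, with 1 gene called higher, and 0.23 without 22 °C replicate 2. The gene with the smallest p was Atp5g1, at 11.5, 4.996 and 16.5 CPM against 4.99, 4.57 and 5.43 CPM (log2 fold change 1.14, SE 0.46, adjusted p = 0.593). The libraries of this depot differed widely, with summed epididymis and testis markers of 3.73 to 25471 CPM at 10 °C and 864 to 8261 CPM at 22 °C.

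At 34 °C the median of the subunits in iBAT lay below that of all genes, but the share called lower was that of all genes. Of 81 tested genes 12 were called lower and 3 higher, against 15.4% and 13.5% of all 12331 genes, and by library size alone the split was 0 lower and 13 higher, with the median of all genes moved from 0.02 to 0.30. With TMM, 24 were lower and 6 higher at an unadjusted p under 0.05 in the quasi-likelihood test, against 21.8% and 21.6% of all genes. All 34 °C libraries lay below all 22 °C libraries for 34 genes and above them for 5, against 24.6% and 24.1% of all genes. The median of the subunits was -0.17 and thus 0.20 below that of all genes, and with library size alone it was 0.09 and 0.21 below. The subunits took 7.06% ± 0.36 of all counts at 34 °C and 6.83% ± 0.48 at 22 °C (n = 3), which did not differ beyond the spread. The directions given below are therefore relative to the TMM scaling.
Sdhd was at 807, 880 and 985 CPM at 34 °C and at 1361, 1164 and 1372 CPM at 22 °C (log2 fold change -0.54, SE 0.12, adjusted p = 0.0155). Sdha was at 2375, 2762 and 2921 CPM against 3906, 3790 and 3659 CPM (log2 fold change -0.50, SE 0.11, adjusted p = 0.0175). Neither gene had overlapping groups. Uqcrfs1, the Rieske iron-sulphur protein, changed by -0.54 (SE 0.12, adjusted p = 0.0147), and Uqcrb and Uqcrc2 of complex III were also called lower. In complex I, Ndufb6 was lowest at -0.47 (SE 0.12, adjusted p = 0.0246), and Ndufa1, Ndufa9, Ndufa10, Ndufb5 and Ndufs8 were called as well. In complex IV, Cox6a1 was lower at -0.50 (SE 0.15, adjusted p = 0.0470).
Cox7a1 and Cox8b, the genes that rose most in ingSAT in the cold, were not called in the warm iBAT, at -0.15 (SE 0.10, adjusted p = 0.308) and -0.11 (SE 0.17, adjusted p = 0.670).
Higher at 34 °C were Cox6b2, a testis-type isoform of subunit 6b, at 12.96, 7.16 and 11.1 CPM against 5.89, 4.37 and 5.39 CPM (log2 fold change 0.997, SE 0.25, adjusted p = 0.0230), Ndufa4l2 at 0.71 (SE 0.15, adjusted p = 0.0141) and Atp5s at 0.50 (SE 0.09, adjusted p = 0.00957). These are genes of low counts. Without 22 °C replicate 1 or 3 the calls numbered 6 or 3, and without 34 °C replicate 1 or 2 they numbered 4 or 8, against 15 in all libraries. DESeq2 called 24 lower and 4 higher and the exact test 4 and 3, again without shares of all genes.

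By complex the medians in warm iBAT were -0.36 for complex III, -0.28 for complex II, -0.20 for complex I, -0.16 for complex IV and -0.10 for ATP synthase. Those of complex IV and ATP synthase were -0.060 and -0.048 without 22 °C replicate 1, -0.090 and -0.039 without 34 °C replicate 1, and -0.17 for ATP synthase without 22 °C replicate 2. The summed CPM of complexes II and III and of ATP synthase did not overlap between temperatures, for example 5130 to 6052 against 6901 to 7462 for complex II.
Other mitochondrial genes were lower in larger shares: 18 of 38 assembly factors (median -0.39, led by Cox19 at -1.02, SE 0.13, adjusted p = 0.00270), 10 of 13 outer membrane and import genes (median -0.43, led by the chaperonin Hspe1 at -0.91, SE 0.13, adjusted p = 0.00375) and 6 of 13 citric acid cycle enzymes (median -0.28, led by Dld at -0.68, SE 0.11, adjusted p = 0.00628). Among the carriers 3 of 11 were lower, led by Gpd2, the mitochondrial glycerol phosphate dehydrogenase, at -1.08 (SE 0.12, adjusted p = 0.00207), and 1 was higher. Regulators gave 4 lower and 2 higher of 17, with Ppargc1a lower at -1.45 (SE 0.26, adjusted p = 0.00821). Cs did not pass at -0.27 (SE 0.09, adjusted p = 0.0650). Brown adipocyte markers were lower for 6 of 8 genes, at 5806 to 7067 CPM against 11317 to 14667 CPM with none at 0, and Ucp1 by -2.26 (SE 0.20, adjusted p = 0.00107); their part in the subunit result was not tested.

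Placed side by side, 56 of the 80 subunit genes tested in both iBAT experiments (70%) had a higher estimate at 10 °C and a lower estimate at 34 °C, against 29.4% of 11155 genes. This held for all 8 genes of complex III and all 4 of complex II, for 22 of 34 of complex I, 11 of 18 of complex IV and 11 of 16 of ATP synthase. The reverse, lower at 10 °C and higher at 34 °C, held for 5 of the 80 (6.25%), against 33.1% of all genes. Most subunit estimates were positive at 10 °C (86.6%) and few at 34 °C (23.5%), so a large share follows from these shifts alone. Gene by gene, whether the estimates were opposed more or less than over all genes depended on the coefficient. The Spearman correlation was -0.17, against -0.32 over all genes, and the Pearson correlation was -0.43, against -0.29. The counts are of estimates and not of calls, and they rest on the TMM scaling. The experiments used different 22 °C mice and, per the paper, different library kits and sequencing sites. Atp5s alone was called in both, and in the opposite sense, lower at 10 °C and higher at 34 °C.
In models of 2 tissues at 34 °C, the change in iBAT differed from that in liver for 2 of 81 genes: Sdhd was lower by 0.55 in iBAT (difference of log2 fold changes -0.55, SE 0.15, adjusted p = 0.0376) and Atp5s higher (0.55, SE 0.15, adjusted p = 0.0458), against 5.28% and 3.83% of all genes. By library size alone 13 differences were called, all higher in iBAT. Leaving out 1 library gave 0 to 3 calls, with 3 without 22 °C replicate 2 of iBAT. Against quadriceps 1 gene differed, Uqcrfs1 (-0.60, SE 0.17, adjusted p = 0.0307), against 6.27% of all genes called lower and 4.68% higher. Without library QM1 of the shared quadriceps controls 6 were lower and 1 higher, without 22 °C replicate 2 of iBAT 3 were lower and 2 higher, and with only the 22 °C libraries named like the 34 °C ones 0 were called.

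**Figure D5:**
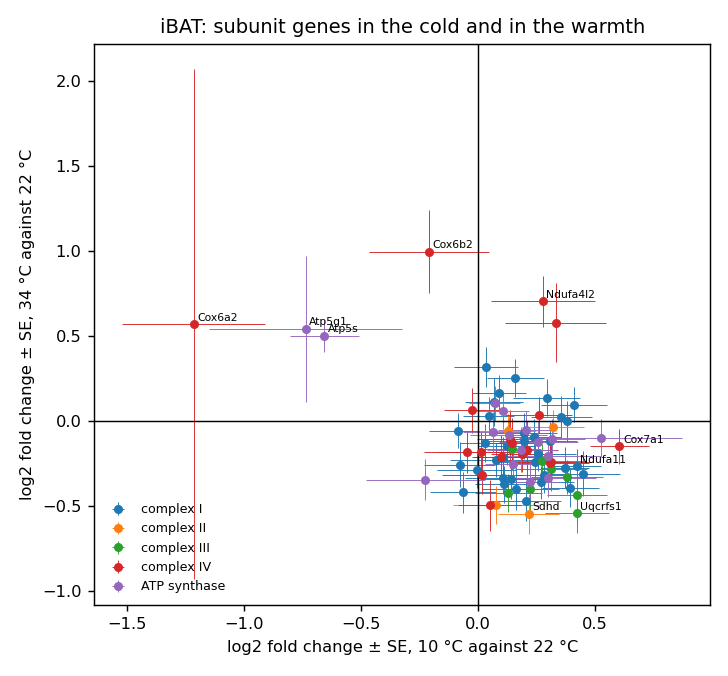
Log2 fold change with its SE of each subunit gene in iBAT at 10 °C against 22 °C (horizontal) and at 34 °C against its own 22 °C group (vertical), 3 libraries per group, coloured by complex. Most genes lie in the lower right quadrant (56 of 80), with all 8 complex III genes among them, and Atp5s and Cox6a2 lie at the upper left; the vertical direction depends on the TMM scaling.

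In the ileum nearly all subunits were slightly higher at 10 °C, but none passed the adjusted threshold. In edgeR's quasi-likelihood test 0 of 78 genes were called, against 0.0639% of all 14081 genes, 0.0497% higher and 0.0142% lower. At an unadjusted p under 0.05, 51 were higher and 1 lower, whereas 10.0% and 7.12% of all genes were. The exact test called 12 higher and DESeq2 20, but the shares of all genes called by these tests were not worked out. The median log2 fold change was 0.25 against -0.01 for all genes, 75 of 78 estimates were positive, and the groups did not overlap upwards for 44 genes (13.1% of all genes).
Uqcrq had the smallest p, at 92.1, 90.8 and 90.2 CPM at 10 °C and at 65.2, 71.3 and 67.0 CPM at 22 °C (log2 fold change 0.42, SE 0.06, adjusted p = 0.0608). The groups were clearly apart. By complex the medians ran from 0.20 for complex II to 0.33 for complex IV, and leaving out any library kept the overall median between 0.20 and 0.31. Within complex III the 5 small subunits had a median of 0.42 and the 3 core genes 0.25, and within complex I the accessory genes had 0.25 and the core genes 0.14.
Enterocyte markers were higher in the same libraries, at 14192 to 15824 CPM against 8701 to 9721 CPM, with 1 of 6 called and none at 0, and their part in the result was not tested. At 34 °C the ileum gave 0 of 77 called by all 3 tests (0% of all genes), 3 higher and 1 lower at an unadjusted p under 0.05 (4.52% and 3.25% of all genes), and a median of 0.11 against 0.01. Cox6b2 had the smallest p there (log2 fold change -0.64, SE 0.23, adjusted p = 0.594).

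The spleen leaned the other way. Of 79 genes 0 were called by the quasi-likelihood test, the exact test or DESeq2, against 0.0779% of all genes called lower. At an unadjusted p under 0.05, 13 were lower and 1 higher (6.35% and 3.64% of all genes), and 73 of 79 estimates were not positive, with a median of -0.18. Sdhc, a membrane anchor of complex II, had the smallest p, at 58.6, 57.2 and 59.8 CPM at 10 °C and at 67.1, 65.5 and 72.4 CPM at 22 °C (log2 fold change -0.22, SE 0.07, adjusted p = 0.485). This lean rested largely on replicate 3 of the 22 °C group, without which the median was -0.05. Neutrophil markers were lower for 5 of 7 genes, at 106 to 130 CPM against 365 to 734 CPM with none at 0, and their part in the result was not tested.

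In bone marrow, with 6 libraries per group, few subunits were called and their differences were small. Of 74 genes 2 were called higher and 1 lower, against 7.33% and 11.6% of all 12525 genes, so both shares were below those of all genes. Ndufa10 was at 69.7 to 78.8 CPM (median 76.5) at 10 °C and at 63.6 to 70.3 CPM (median 66.4) at 22 °C (log2 fold change 0.17, SE 0.04, adjusted p = 0.0140). The ranges touched only at their ends. Atp5b rose by 0.15 (SE 0.04, adjusted p = 0.0242), and Ndufv3, an accessory subunit of complex I, was lower at -0.15 (SE 0.04, adjusted p = 0.0202). The median of all subunits was 0.03. Without replicate 4 of the 10 °C group 4 were called higher and 1 lower. Neutrophil markers were lower for 5 of 7 genes (36974 to 39222 against 39955 to 57990 CPM) and red cell precursor markers higher for 3 genes, and their part in these differences was not tested.

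In brain, hypothalamus, spinal cord, liver and quadriceps no subunit gene was called at either temperature by the quasi-likelihood test, the exact test or DESeq2. In the brain at 10 °C 2 of 80 had an unadjusted p under 0.05, both lower, led by Ndufb5 (121 ± 6 against 147 ± 9 CPM, log2 fold change -0.28, SE 0.10, adjusted p = 0.706). Of all genes 0% were called, and unadjusted 2.82% were lower and 1.06% higher, so at this threshold the share of subunits was near that of all genes. The estimates still leaned downwards, with 5 of 80 positive. For 24 subunit genes all 10 °C libraries lay below all 22 °C libraries, which held for 6.46% of all genes. The median of -0.21 shrank to -0.10 without the 22 °C library that stood apart, and by library size alone it was -0.07. At 34 °C 0 of 80 brain genes passed even unadjusted (median -0.03), against 0% of all genes called and 1.22% higher and 1.42% lower unadjusted. The hypothalamus had 2 of 81 genes lower and 0 higher unadjusted (2.67% and 3.50% of all genes, with 0% called), a median of -0.02 and its smallest p at Ndufa5 (log2 fold change -0.20, SE 0.06, adjusted p = 0.718).
The spinal cord had 6 of 76 genes higher and 0 lower unadjusted (2.82% and 2.96% of all genes, with 0.00695% called), a median of 0.07 and its smallest p at Cox5a (log2 fold change 0.12, SE 0.05, adjusted p = 0.780). In liver 3 of 78 genes were higher and 0 lower at an unadjusted p under 0.05 at 10 °C, fewer than the 8.00% and 10.6% of all genes (median 0.06, 0% of all genes called), led by Ndufs5, whose counts are uncertain (log2 fold change 0.49, SE 0.13, adjusted p = 0.129). At 34 °C 1 of 77 was higher and 3 lower unadjusted, against 6.00% and 5.21% of all genes (median -0.08, 0.385% of all genes called, 0.116% higher and 0.268% lower), led by Ndufa1 at -0.29 (SE 0.08, adjusted p = 0.239).

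In quadriceps at 10 °C 1 of 80 genes was higher and 1 lower at an unadjusted p under 0.05, and the median was -0.10, -0.034 without library QM1 and 0.067 by library size alone, with 0.338% of all genes called, 0.279% higher and 0.0591% lower. Unadjusted, 7.37% of all genes were higher and 4.74% lower. The groups did not overlap upwards for 1 subunit gene and downwards for 2, against 3.98% and 3.56% of all genes. The smallest p was that of Cox6a1, the widespread isoform, which was low in this muscle. It was at 41.5, 42.3 and 19.6 CPM at 10 °C and at 15.1 to 30.8 CPM (median 18.7) in the 6 libraries at 22 °C (log2 fold change 0.76, SE 0.27, adjusted p = 0.294). Brown adipocyte markers stood at 75.6 to 250 CPM against 23.8 to 58.1 CPM in these libraries, with 1 of 8 called higher and none at 0, and their part was not tested. The muscle isoforms Cox6a2 (580 ± 36 against 723 ± 129 CPM, adjusted p = 0.418) and Cox7a1 (248 ± 32 against 273 ± 46 CPM, adjusted p = 0.740) did not pass, although all Cox6a2 values at 10 °C were below those at 22 °C. At 34 °C 0 of 80 genes passed even unadjusted (2.81% of all genes higher and 2.56% lower, 0% called; median -0.01), with the smallest p at Ndufc1 (log2 fold change 0.21, SE 0.11, adjusted p = 0.937).

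Across the 16 comparisons, 68 of the 85 genes were called at least once, 53 of them in 1 comparison, 14 in 2 and 1 in 3. Of the 83 subunit genes tested at least once this was 81.9%, and of all 19121 genes tested at least once 34.1% were called, with most of the subunit calls coming from ingSAT. The gene called in 3 was Ndufa10, higher in ingSAT and bone marrow at 10 °C and lower in iBAT at 34 °C. Of the 14, Cox7a1 and Ndufa11 were higher in both ingSAT and iBAT at 10 °C. A further 10 genes, among them Sdhd, Uqcrb, Uqcrc2, Uqcrfs1, Cox6a1 and Ndufa1, were higher in ingSAT at 10 °C and lower in iBAT at 34 °C. By library size alone no subunit gene was called higher in iBAT at 10 °C or lower in iBAT at 34 °C. Some genes could not be tested everywhere for low counts: Cox7b2 and Cox8c, known from testis, in 16 of 16 comparisons, Cox8b in 9, and Cox4i2 and Cox6a2 in 6 each. Ndufs5 was not tested in 8, those outside the table of 8 tissues, where it is listed at 0 in every library; its 0 belongs to the tables and says nothing of its level.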

How the data were processed

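The deposited tables held raw read counts per gene, which the authors made from the reads. Per the paper's methods, reads were aligned to the mouse genome (mm10) and counted per gene, and the submitters' processing notes name STAR 2.5.3a, Picard 1.141 and HTSeq 0.6p1 (the paper gives later versions of STAR and HTSeq). No value column was left unused. Ensembl identifiers of 1 table were turned into symbols for 21583 of 21647 rows. Groups followed the sample labels, and some quadriceps and spinal cord columns could be tied to a group but not to a sample.

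Counts were tested with edgeR 4.0.16 in R 4.3.3 (glmQLFit and glmQLFTest, two-sided) with TMM factors, genes of average log2 CPM above 0 and Benjamini-Hochberg adjustment over all genes tested in the comparison. A gene was called at an adjusted p under 0.05. Printed CPM are counts in tested genes scaled to a common library size with TMM, and the SE is the log2 fold change over the square root of F. Differences between tissues were interaction terms, with all libraries taken as independent. The labels do not say whether libraries of different tissues came from the same mice. The script was tested on simulated counts. Alternatives were library size alone, RLE factors, other filters, the exact test, DESeq2 1.42.0, the study's limits (a 1.5-fold change with p up to 0.05, not adjusted), a replicate block and leaving out each library.

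The members and gene lists were chosen with earlier results of these data known. Named genes were, in each comparison and complex, the called gene with the largest rise and fall, the isoform genes, the smallest p where none was called, and up to 5 genes called most often; other members were named after their values were seen. Same-numbered libraries did not deviate together in every pair of any comparison (the lowest correlation was -0.69), so numbers were not taken as pairs. p-values measure the spread between libraries, and the counting depth limits genes of low counts.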

Additional observations from a re-analysis of the deposited data

Results flagged for a closer look

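Library QM1 of quadriceps at 22 °C was far above the other 5 libraries of its group in many subunit measures. Its summed level was 32128 CPM over all subunits (others 25301 to 26855), 8800 CPM for complex I (others 6644 to 7094), 3431 CPM for complex III (others 2762 to 2944) and 12333 CPM for ATP synthase (others 9702 to 9915). The same library was highest for the c-ring genes Atp5g1 (753 CPM, others 418 to 499), Atp5g2 (133 CPM, others 85.3 to 96.5) and Atp5g3 (590 CPM, others 459 to 507) and for Cox6a2 (974 CPM, others 630 to 728). In bone marrow at 22 °C, replicate 2 had 579 CPM for complex II (others 526 to 543). In spinal cord at 10 °C, replicate 4 had 744 CPM of Cox4i1 (others 518 to 547) and 283 CPM of Cox6a1 (others 186 to 197). Of 97 groups of values examined 11 stood out in this way, and chance gives about 1 in 20 for independent groups. These groups were not independent, since most of the 11 were library QM1 in sums that share genes. The 11 can therefore not be read as an excess over chance.

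The cold response differed between ingSAT and iBAT for 36 subunit genes in the interaction test. Among the named genes the difference of log2 fold changes (ingSAT minus iBAT) was 3.38 for Cox7a1, 2.48 for Cox8b, 1.35 for Uqcrb, 1.25 for Ndufa1, 1.14 for Sdhd, 0.996 for Atp5s (SE 0.24, adjusted p = 0.0470), 0.97 for Cox6a1 and 0.83 for Cox6b1. At 34 °C, 2 genes differed between iBAT and liver, Atp5s by 0.55 and Sdhd by -0.55, and 1 gene differed between iBAT and quadriceps, Uqcrfs1 by -0.60.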

How the results depend on the processing

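Counts of called subunit genes changed with the test. The share of all genes called was worked out only for the main fits. Counts by other tests or scalings, or without a library, therefore have no background beside them. In iBAT at 10 °C the count of 4 became 2 by library size alone (0 higher and 2 lower), 9 by the exact test and 13 by DESeq2. In iBAT at 34 °C the count of 15 became 7 by the exact test, 28 by DESeq2 and 2 by the study's limits. In ileum at 10 °C the count of 0 became 12 by the exact test, 20 by DESeq2 and 1 without a filter or by the study's limits. The study's limits gave 1 in pgVAT and quadriceps at 10 °C and in ileum at 34 °C, and 0 in bone marrow. The replicate block gave 44 calls in ingSAT, 5 in iBAT at 10 °C and 0 in bone marrow (3 without it), and 0 in the other 7 comparisons with numbered replicates. For iBAT against liver, library size alone gave 13 and no filter 0, and for iBAT against quadriceps no filter and the prefix-matched controls, an alternative chosen after seeing the data, gave 0.

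Library size alone also moved medians. In iBAT at 10 °C they became 0.034 for all subunits, 0.039 for complex I, 0.014 for II, 0.13 for III, -0.017 for IV and 0.029 for ATP synthase. In iBAT at 34 °C they became 0.092, 0.067, -0.0064, -0.10, 0.11 and 0.17 in the same order. In brain at 10 °C they became -0.069 for all subunits, -0.063 for complex I and 0.030 for IV, and in quadriceps at 10 °C 0.067 for all subunits.

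Leaving out 1 library gave ranges of 0 to 5 calls in iBAT at 10 °C, 7 to 71 in ingSAT, 0 to 1 in pgVAT, 2 to 5 in bone marrow and 3 to 16 in iBAT at 34 °C. For differences the ranges were 15 to 58 (ingSAT and iBAT), 0 to 18 (ingSAT and pgVAT), 0 to 3 (iBAT and liver) and 0 to 7 (iBAT and quadriceps). Medians ranged from 0.87 to 1.02 in ingSAT (complex I 0.85 to 0.96, ATP synthase 0.67 to 0.88) and in spleen from -0.30 to -0.090 for complex III and -0.23 to -0.021 for ATP synthase. Where a group kept few libraries, the left ones were assumed to vary like the rest. The cause of these changes was not tested. Of 41 named called values 10 kept the call in every setting and 0 changed sign. The planned choice of quadriceps controls by the numbers in the sample titles was not run, since the columns could not be tied to these titles. Low counts limit Cox4i2, Cox6b2, Cox6a2 outside muscle and Cox8b outside fat and muscle.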
